A study of Mus musculus with 4 samples.

Results

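Grey matter oligodendrocytes were defined here as oligodendrocytes that lay among few other oligodendrocytes. MERFISH, an imaging method that reads out individual mRNAs inside tissue, had been applied with a panel of 383 genes to 4 coronal brain slices of 10 µm that carried the striatum of both hemispheres, 2 from young mice aged 2 months and 2 from aged mice aged 18 months. All mice were wild-type C57BL/6NTac, both sexes were used in the study without a sex given for each section, and no treatment or transgene was used in either group. A cell was kept with at least 10 detected genes and a volume of at least 50 cubic micrometres. It counted as an oligodendrocyte when Mag, Mal, Cldn11, Trf, Mobp and Opalin together gave at least 10 transcripts and at least 15% of its transcripts, and as grey matter when fewer than 20% of the other kept cells within 100 µm were oligodendrocytes. This rule gave 12867 cells of 281824 kept cells. The sections are called Young 1, Young 2, Aged 1 and Aged 2, values given in sequence follow this order, and the cells numbered 3030, 2979, 3283 and 3575. The other 11452 oligodendrocytes with kept cells around them were taken as white matter oligodendrocytes. The members were thus chosen by measured values of these 6 genes, which are described without a test.

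Oligodendrocytes wrap axons in myelin, the insulating membrane that speeds nerve conduction, and supply axons with lactate and other fuel. Most lie in tracts such as the corpus callosum. The striatum and cortex hold others, scattered among neurons, and new ones are still formed in adult life from precursor cells that pass through a short stage marked by the receptor Gpr17. Myelin genes include Mag, a myelin adhesion protein facing the axon, Mobp and Mal, proteins of compact myelin and its membranes, and Cldn11, which forms tight junctions within the sheath. Trf encodes the iron carrier transferrin, and Opalin a membrane protein of mature oligodendrocytes.

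The sections differed in depth. The kept cells held a median of 400, 325, 215 and 293 transcripts, and both aged sections were thus shallower than both young sections. Grey matter oligodendrocytes held a median of 274, 222, 153 and 185 transcripts and of 77, 69, 58 and 64 genes. Levels are therefore given as transcripts per 10000 transcripts of all panel genes, summed over the cells of a section. Sections and not cells were the replicates. The study's text counts 4 mice for this assay and calls its replicates biological, so each section was read as a separate mouse, although the labels tie no section to an animal. The panel itself had been built partly from genes that changed with age in the study's own sequencing of striatal cells, so that a share of panel genes is no share of all genes. No cell identifier was shared between sections.

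The label was set against lists of genes that the rule did not use, chosen with earlier results of these data known. A list of 14 other oligodendrocyte genes, among them Olig1, a transcription factor of the lineage, and Sirt2, a deacetylase found in myelin, made up 2415, 2528, 2553 and 2582 per 10000 in grey matter oligodendrocytes, against 214 to 254 in all cells that were not oligodendrocytes. The 6 genes of the rule, whose level the rule itself set, made up 2506, 2517, 2378 and 2295 per 10000. The neuron list of 8 genes stood at 188, 199, 216 and 175 per 10000 against 1526 to 1714 in the other cells. The microglia list stood at 27.6 to 34.7 and the vascular list at 29.8 to 38.2. Not every gene of the 14 was specific. Dbndd2 was found in 53.1% to 70.3% and Tmem151a in 64.2% to 80.2% of the deeper neurons in grey matter surroundings. No marker of any list was at 0 in a section. Between 18.3% and 21.0% of the cells also carried at least 3 detected genes of another class's list that made up at least 5% of their transcripts, and these are called mixed cells below.

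The limits of the rule cut through continuous values. In Young 1, the 249 oligodendrocytes just inside the limit on the marker share, at 15% to 17%, gave 17.7% of their transcripts to the other oligodendrocyte genes and 4.45% to the neuron list, and the 274 cells just outside it, at 13% to 15%, gave 15.2% and 5.89%. In Aged 2 the shares were 20.9% and 3.09% just inside and 18.7% and 4.24% just outside. At the limit of grey matter, the 394 cells of Young 1 with 15% to 20% oligodendrocytes around them and the 248 cells with 20% to 25% gave 24.5% and 25% of their transcripts to the other oligodendrocyte genes.

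**Figure D1:**
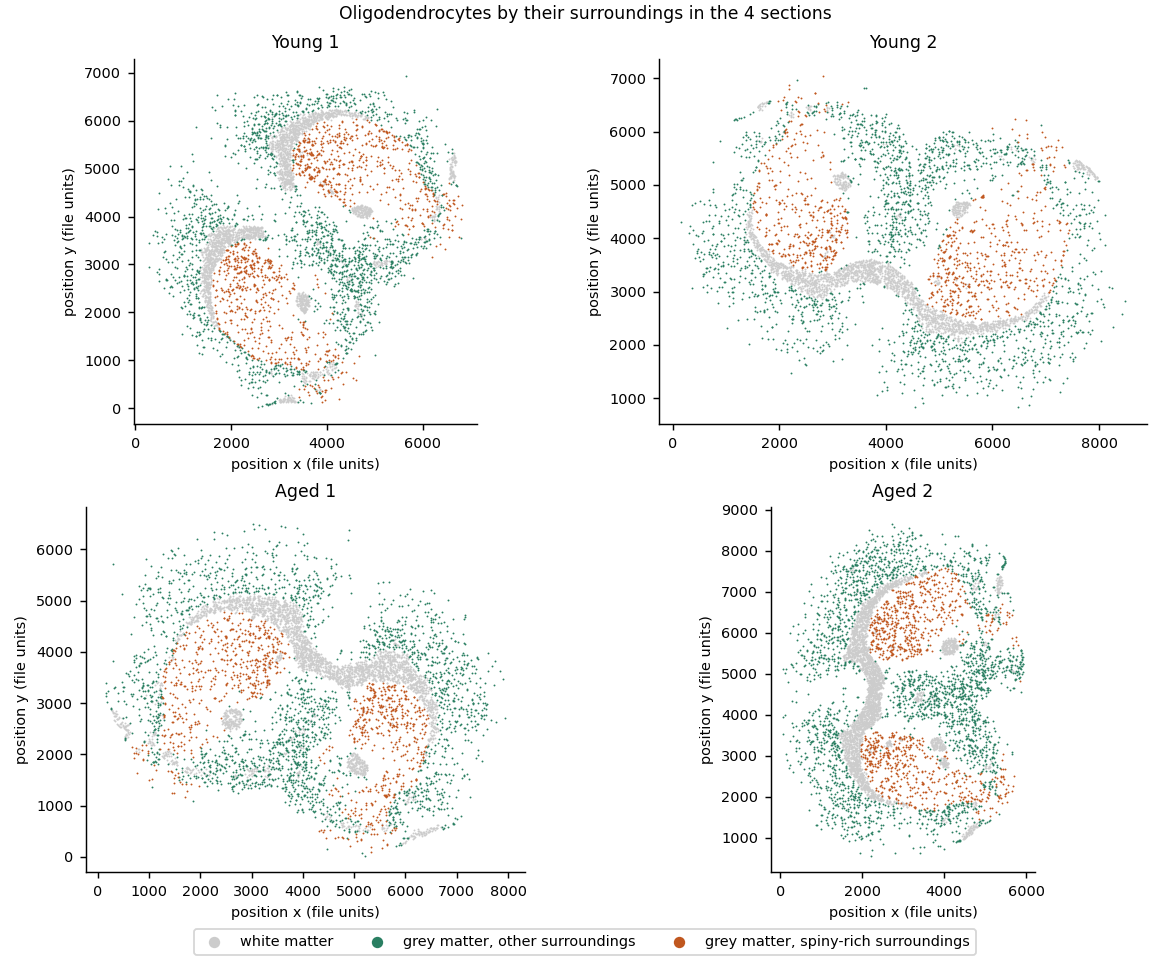
Positions of all oligodendrocytes in the 4 sections, in the units of the deposited positions, coloured by their surroundings (grey dots, white matter; green, grey matter outside spiny-rich tissue; orange, grey matter in which at least 20% of the cells nearby were spiny neurons). White matter cells formed a curved band and compact patches, and grey matter cells lay scattered on both sides of the band in every section.

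The share of these cells was higher in the aged sections. They made up 4.46%, 4.21%, 4.80% and 4.79% of all kept cells, and 4.88%, 4.55%, 5.39% and 5.30% of the cells in grey matter surroundings, so that the ages did not overlap. When every cell was thinned to 100 transcripts and 8566 to 15937 shallower cells per section were left out, the share of kept cells was 4.46%, 4.26%, 4.60% and 4.59%. The part of all oligodendrocytes that lay in grey matter was lower with age, at 54.8%, 55.2%, 50.6% and 51.8%, and at 53.9%, 54.8%, 49.8% and 50.4% after thinning. The two-sided exact permutation test over sections gave p = 0.333 for each, the smallest value that 2 sections against 2 allow, so neither difference could pass a threshold. Both turned direction when the marker share had to reach 30%.

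Neurons were the most frequent nearest cell of grey matter oligodendrocytes, but less often than their share of the cells. Neurons were the nearest kept cell of 56.3%, 54.6%, 56.1% and 55.9% of these oligodendrocytes. The median distance to the nearest cell of any kind was 11.3 to 12 µm. Neurons made up 61.3% to 64.3% of all cells in grey matter surroundings, above the share with a neuron nearest in every section. Another oligodendrocyte was nearest for 12.5%, 12.2%, 11.6% and 10.4%, a description only, since the rule limited the share of oligodendrocytes around a cell, whose median was 7.79%, 7.14%, 8.16% and 7.69%. Oligodendrocytes made up 4.55% to 5.39% of all cells in grey matter surroundings, below the share with an oligodendrocyte nearest in every section. Microglia, the resident immune cells of the brain, were nearest for 3.53%, 4.50%, 2.74% and 2.57%, and the median distance to the nearest microglial cell was 63.4, 68.8, 80.4 and 75.0 µm. The aged sections thus had fewer microglial neighbours at a longer distance, without overlap between the ages. Microglia were also fewer among all cells of grey matter surroundings, at 2.41%, 2.44%, 1.84% and 1.94%, and the part of this difference, of the depth of the sections and of the rebuilt cell classes in the distances was not tested. The exact permutation test gave p = 0.333 for the share and for the distance.

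Grey matter oligodendrocytes were smaller than those of white matter. Their median volume was 594, 567, 628 and 558 cubic micrometres, against 751, 755, 785 and 760 in white matter, lower in each of 4 sections. The ages overlapped in grey matter.

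Between grey and white matter, 177 of 382 genes tested (46.3%) passed at an adjusted p under 0.05 (edgeR's quasi-likelihood test, Benjamini-Hochberg adjustment) with the section as a block, 86 higher (22.5%) and 91 lower (23.8%) in grey matter. With the 6 genes of the rule left out of the fit, 185 of 376 passed. The rule's own genes were lower in grey matter, from 0.56 on the log2 scale for Mal and Cldn11 to 0.15 for Mag, given as a description. Of the 14 other oligodendrocyte genes, 10 were lower and 0 higher, with a median log2 difference of -0.35 against -0.08 over all genes tested. Dbndd2 stood at 59.4, 67.2, 78.0 and 79.0 per 10000 in grey matter and at 88.9, 98.6, 107 and 113 in white matter, lower in each section (log2 difference -0.72 ± 0.08 SE, adjusted p = 1.54e-05). Cryab, a small heat shock protein, was lower by a log2 difference of -0.62 (adjusted p = 1.06e-04), and Tspan2, a tetraspanin of myelin, by -0.52 (adjusted p = 2.25e-04). Gatm, which makes the creatine precursor, and Slain1, a microtubule protein, were lower by -0.48 and -0.49. Of the 4 genes of this list that did not pass, Plin3, Hspa2, Efnb3 and Pls1, the log2 differences were -0.20 to -0.24. Slc16a1, the lactate transporter MCT1, stood at 59.7, 53.4, 53.7 and 52.1 per 10000 in grey matter and 61.6, 56.5, 59.8 and 53.1 in white matter. Its log2 difference was -0.27 (adjusted p = 0.0355, and up to 0.0988 over the alternatives), larger in size than these levels give. The log2 differences between zones were taken after TMM scaling, which set them lower than the levels per 10000 do. Small differences, such as that of Slc16a1, thus depend on the scaling. Cntn1, an adhesion protein of axons and glia, was 0.27 higher on the log2 scale, which did not pass (adjusted p = 0.0582).

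Genes of neurons led the higher side. All 8 genes of the neuron list and 7 of the 8 spiny neuron genes were higher in grey matter, with median log2 differences of 2.00 and 2.69. Penk, which encodes the opioid precursor of indirect-pathway spiny neurons, stood at 11.6, 11.2, 11.4 and 9.63 per 10000 against 1.15, 0.732, 1.25 and 0.782 in white matter (log2 difference 3.32 ± 0.17 SE, adjusted p = 2.11e-08). Drd2 and Drd1, the dopamine receptors of spiny neurons, and Rgs4, Scn4b, Ptpn5, Arpp21, Meg3 and Lrrc7, further neuronal genes, followed with log2 differences from 2.58 to 3.03. Neurons around the cells carried these transcripts, the cells that were not oligodendrocytes holding 75.3 to 102 per 10000 of Penk. Without mixed cells all 8 genes of the neuron list were still higher, with a median of 1.52. The part that neighbouring neurons had in these levels was not tested further.

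The lower side was led by Thbs4 and Gfap, while 2 genes of the astrocyte list of 8 were higher and 2 lower and 3 of the 6 precursor genes were lower. Thbs4, the secreted matrix protein thrombospondin 4, stood at 1.26, 0.796, 0.333 and 0.173 per 10000 in grey matter and at 14.1, 8.77, 12.1 and 9.36 in white matter (log2 difference -4.37 ± 0.33 SE, adjusted p = 5.50e-07). Gfap, the astrocyte filament, stood at 11.8, 12, 19.3 and 17.6 against 93.1, 80.0, 131 and 104 (log2 difference -2.95, adjusted p = 7.20e-09). Igfbp5, Top2a and Vim, an insulin-like growth factor binding protein, a topoisomerase of dividing cells and a filament of immature cells, were lower by -2.26, -1.77 and -1.53. C4b, complement component 4, Id3, a transcriptional inhibitor, and the precursor genes Gpr17, C1ql1 and Pdgfra were lower by -1.20, -1.16, -1.17, -1.15 and -1.09, each passing in the same fit. All 8 microglia genes were also lower, with a median of -0.38, but without mixed cells 1 passed and after thinning 0 passed. The summed microglia list stood at 34.7, 29.5, 27.6 and 29.0 per 10000 in grey matter and at 37.1, 33.8, 31.4 and 33.9 in white matter. B2m, the light chain of MHC class I, was 0.46 lower on the log2 scale (adjusted p = 0.0111), and Serpina3n, H2-D1 and H2-K1, an acute-phase protease inhibitor and class I heavy chains, were 0.35, 0.30 and 0.23 lower without passing.

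**Figure D2:**
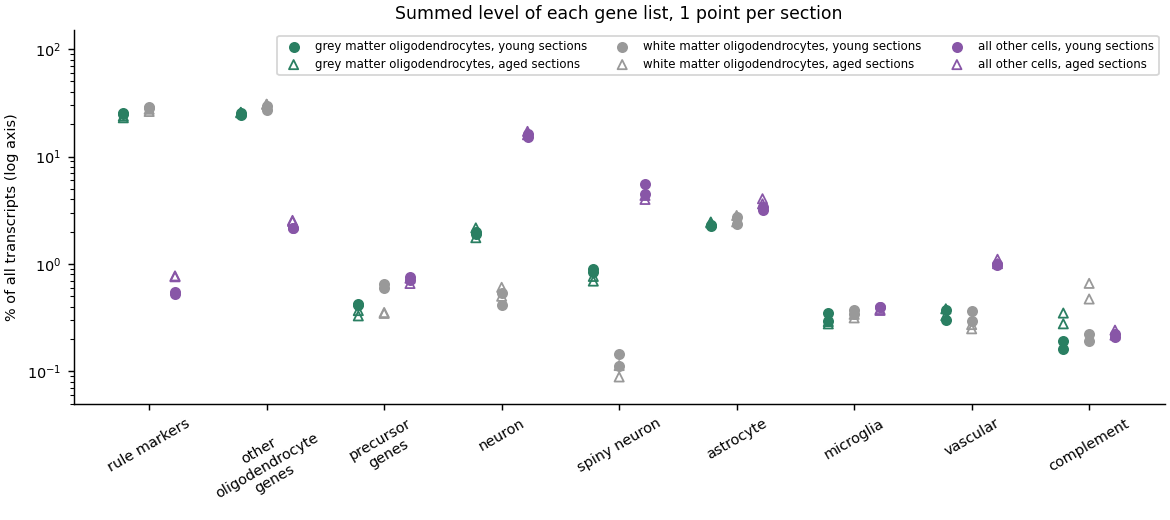
Summed level of each marker list as percent of all transcripts, on a log axis, with 1 point per section in grey matter oligodendrocytes, white matter oligodendrocytes and all other kept cells (filled circles, young; open triangles, aged). The rule markers and the other oligodendrocyte genes each made up more than 20% of the transcripts of both kinds of oligodendrocyte, and neuronal lists stood higher in grey than in white matter but below the other cells.

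With age, 15 of 382 genes tested (3.93%) passed the threshold in grey matter oligodendrocytes, 8 higher (2.09%) and 7 lower (1.83%) in the aged sections (edgeR's quasi-likelihood test, Benjamini-Hochberg adjustment). At an unadjusted p under 0.05 there were 58. The higher genes were C4b, Ano1, Il33, Cbs, Spock3, Gfap, Synm and Apoe. The lower genes were Thbs4, Gpr17, Tnf, Abcg2, Cxcl12, Marcksl1 and Marcks. Over 15 alternatives the call held under 5 for Apoe, 7 for Marcksl1 and Thbs4, and 8 for Synm and Tnf. For the rest it held under 9 to 14. In each of the 15 the ages did not overlap, a description only, since the test chose these genes by their difference between ages. Full separation of 2 sections against 2 has an exact permutation p of 0.333. The count rested on all 4 sections: it was 12 without Young 1, 0 without Young 2 (47 at an unadjusted p under 0.05), 2 without Aged 1 (C4b and Gpr17) and 1 without Aged 2 (C4b), and 6 of the 12 without Young 1 were among the 15.

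C4b had the largest fold among the genes that passed. It stood at 3.28, 4.17, 20.3 and 14.4 per 10000, a rise of 4.91-fold (log2 difference 2.29 ± 0.21 SE, adjusted p = 3.92e-05). Over the alternatives the adjusted p reached 0.113, without Young 2. The files do not say whether the C4b probes tell this gene from its close copy C4a. Transcripts of C4b were found in 8.18%, 8.96%, 20.1% and 17.9% of the cells, and in 3.28%, 3.48%, 14.8% and 10.5% after thinning to 100 transcripts. Neurons in the same surroundings, taken for comparison, gave 11.4%, 12.3%, 7.69% and 9.60% at median depths of 618, 515, 311.5 and 451 transcripts. After thinning they gave 1.95%, 2.39%, 2.39% and 2.14%. Whether the neurons made these transcripts themselves was not tested. The unthinned young shares were thus below those of the deeper neurons, and only the aged shares stood above the neurons in both forms. Cells with at least 3 transcripts of C4b numbered 13, 13, 114 and 101. The same gene stood at 16.1, 13.4, 21.8 and 17.2 per 10000 in astrocytes of grey matter and at 1.78 to 3.28 in microglia, so that the level in these oligodendrocytes was below that of the astrocytes of the same section in each of 4 sections.

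Il33, a cytokine of the interleukin-1 family held in the nucleus, was 1 of the 14 other oligodendrocyte genes. It stood at 180, 203, 367 and 328 per 10000, 1.92-fold higher in the aged sections (log2 difference 0.94 ± 0.15 SE, adjusted p = 0.00491). Its transcripts were found in 78.1%, 77.5%, 92.3% and 92.7% of the cells and, after thinning, in 67.4%, 69.6%, 90.6% and 87.7%, against 3.74% to 7.99% of thinned neurons. Most cells of either age thus carried Il33, and more of them in the aged sections. In astrocytes it stood at 24.3, 26.3, 37.7 and 33.5 per 10000.

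The other genes that rose belong to several groups. Cbs, an enzyme of sulphur amino acid metabolism, stood at 14.0, 14.3, 28.5 and 20.6 per 10000 and rose 1.83-fold (adjusted p = 0.0149). Spock3, a matrix proteoglycan, stood at 35.6, 48.6, 67.2 and 78.0 and rose 1.82-fold (adjusted p = 0.0206). Synm, an intermediate filament protein, stood at 33.6, 33.1, 54.7 and 45.6 and rose 1.59-fold (adjusted p = 0.0207). These 3 genes were also measured in other cells of the tissue. Cbs stood at 69.5 to 92.5 in astrocytes, above its level here in every section. Spock3 stood at 50.1 to 62.6 in neurons, above both young and below both aged levels here. Synm stood at 34.1 to 47.8 in vascular cells, above both young levels here and below that of Aged 1. The part of these cells in the 3 genes was not tested. Gfap, at 11.8, 12, 19.3 and 17.6 per 10000, rose 1.64-fold (adjusted p = 0.0207), and Apoe, the main lipid carrier of the brain, at 128, 117, 171 and 164, rose 1.46-fold (adjusted p = 0.0440). Both are astrocyte genes, and astrocytes held 139 to 174 per 10000 of Gfap and 452 to 487 of Apoe, with ages that overlapped for both genes. The astrocyte list as a whole stood at 225, 229, 245 and 241 per 10000 in grey matter oligodendrocytes, 1 of its 8 genes passing. The call of Apoe held under 5 of 15 alternatives. The part of astrocyte transcripts in Gfap and Apoe was not tested. Ano1, a chloride channel, stood at 0.865, 0.632, 2.68 and 1.85 per 10000 (3.19-fold, adjusted p = 0.0139), far under its 38.5 to 50.1 in vascular cells. The vascular list in grey matter oligodendrocytes stood at 36.8, 29.8, 38.2 and 32.9. The part of vascular cells in the level of Ano1 was not tested.

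Gpr17 fell with age. It stood at 11.5, 9.37, 4.07 and 2.93 per 10000, a fall of 2.82-fold (log2 difference -1.49 ± 0.21 SE, adjusted p = 0.00151). Its transcripts sat in few cells: 92, 76, 12 and 10 cells held at least 3 of them, and these held 74.2%, 70.6%, 31.0% and 34.5% of all Gpr17 transcripts of the grey matter oligodendrocytes. Thinned shares of cells with a transcript were 5.51%, 5.08%, 2.94% and 2.26%, against 2.47%, 2.35%, 2.36% and 1.81% of thinned neurons, so that in the aged sections the share lay close to that of neurons. Unthinned shares were 11.3%, 8.96%, 4.72% and 3.97%, against 8.52%, 7.51%, 5.50% and 5.45% of neurons at the median depths given for C4b. In cells that no marker list claimed, where precursors without the 6 genes would fall, Gpr17 stood at 119, 92.6, 63.3 and 44.0 per 10000.

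The cells rich in Gpr17 had a profile of their own, given as a description because Gpr17 chose them. Their median volume was 1077, 899, 1114 and 1020 cubic micrometres. They held a median of 624, 520.5, 346.5 and 437.5 transcripts. Both were above the other grey matter oligodendrocytes of each section. A limit on unthinned transcripts favours deeper cells, and no cells of matched depth were compared. Marcks, a regulator of the actin skeleton, stood at 240, 310, 185 and 198 per 10000 in them and at 34.0, 35.3, 27.0 and 26.5 in the rest. Tnr, an extracellular matrix protein of the lineage, stood at 44.0, 38.3, 84.0 and 72.9 against 2.67 to 3.87. In the young sections, where they were most numerous, Il33 was low in them, at 44.6 and 50.1 against 189 and 212 per 10000 in the rest, and Sirt2 was high, at 177 and 216 against 65.4 and 81.6. Mag was also above the rest there, at 609 and 562 against 405 and 434 per 10000. The aged sections held only 12 and 10 such cells, and their profile differed in part. Il33 stood there at 229 and 212 against 368 and 328, and Mag at 407 and 339 against 404 and 379. Sirt2 stood at 54.6 and 91.1 against 48.4 and 79.1. Pdgfra stood at 32.0, 29.8, 218 and 134 per 10000 in the cells rich in Gpr17, against 2.79, 2.47, 2.39 and 3.15 in the rest.

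Marcks and its relative Marcksl1 fell with age in all grey matter oligodendrocytes, Marcks from 46.9 and 51.6 to 28.3 and 27.5 per 10000 (log2 difference -0.74 ± 0.15 SE, adjusted p = 0.0149) and Marcksl1 from 9.82 and 8.67 to 5.0 and 5.43 (adjusted p = 0.0419). Without the cells rich in Gpr17, an alternative added after seeing the data, 5 genes passed: C4b, Il33, Cbs and Ano1 higher and Abcg2 lower. Marcks then gave a log2 difference of -0.30 (adjusted p = 0.435) and Marcksl1 an adjusted p of 0.190.

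Of the other genes that fell, Thbs4 stood at 1.26, 0.796, 0.333 and 0.173 per 10000 (log2 difference -1.96 ± 0.43 SE, adjusted p = 0.0207). It rested on 12 cells of Young 1 and 3 of Young 2 with at least 3 transcripts, which held 63.9% and 61.9% of its transcripts, while no cell of the aged sections held more than 2, and the call was lost under 8 of 15 alternatives. Tnf, the tumour necrosis factor gene, fell from 3.15 and 2.79 to 1.42 and 1.24 per 10000 (adjusted p = 0.0324). Abcg2, an efflux pump of brain vessels, fell from 10.1 and 7.55 to 4.40 and 3.71 (adjusted p = 0.0149), and Cxcl12, a chemokine, from 5.72 and 4.55 to 2.39 and 2.54 (adjusted p = 0.0264). Vascular cells held 106 to 125 per 10000 of Abcg2 and 89.2 to 112 of Cxcl12, and the part of these cells in the falls was not tested.

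**Figure D3:**
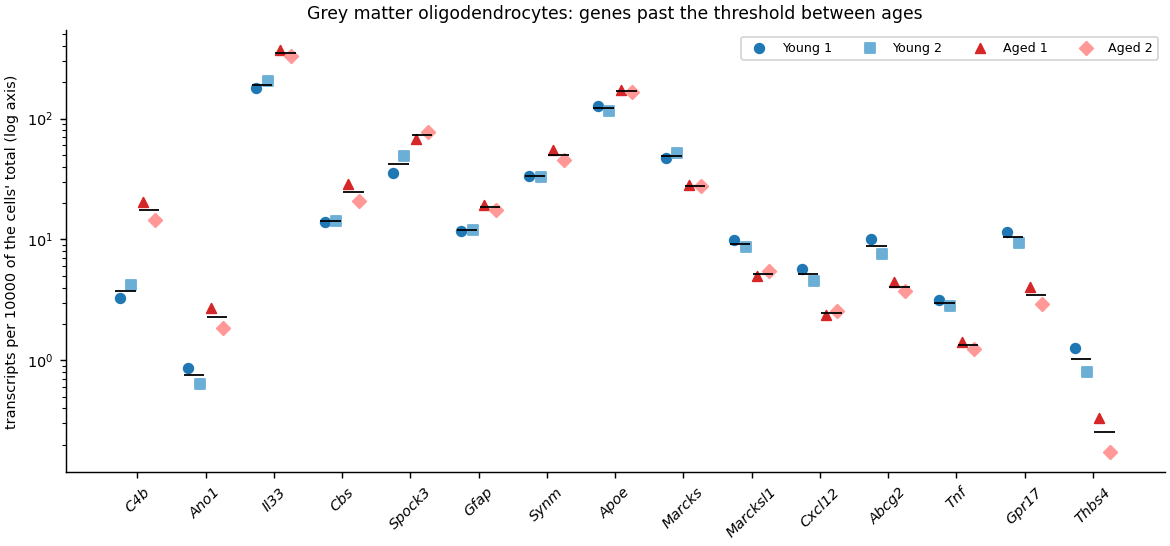
Level of the 15 genes past the threshold between ages in grey matter oligodendrocytes, in transcripts per 10000 on a log axis, with 1 marker per section (blue, young; red, aged) and a bar at the mean of each age. The young and aged markers of each gene do not overlap, from C4b at 3.28 and 4.17 against 20.3 and 14.4 to Thbs4 at 1.26 and 0.796 against 0.333 and 0.173.

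Most of the other oligodendrocyte genes gave no call with age. Of the 14 other oligodendrocyte genes 1 (Il33) was higher and 0 lower, with a median log2 difference of 0.07 against 0.01 over all genes tested. Olig1 stood at 170, 172, 172 and 153 per 10000 (log2 difference 0.01, 95% interval -0.27 to 0.28). Gatm stood at 391, 397, 502 and 544, without overlap between ages, but a log2 difference of 0.49 did not pass (adjusted p = 0.133). Tspan2 stood at 516, 673, 466 and 394 (log2 difference -0.39, adjusted p = 0.305). Slc16a1 differed by -0.01 on the log2 scale, with an interval from -0.28 to 0.26. The rule's own genes are given as a description: Opalin stood at 116, 114, 98.9 and 97.7 per 10000, Cldn11 at 439, 459, 385 and 356, and Mobp at 327, 355, 399 and 336.

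The other lists were described by counts, to be read against 2.09% of all genes tested higher, 1.83% lower and a median log2 difference of 0.01. Of the complement list of 7 genes 1 was higher (C4b), with a median log2 difference of 0.32. Of the acute-phase and reactive list of 9 genes 1 was higher (Gfap), 9 had a log2 difference above 0, as had 200 of the 382 genes tested, and the median was 0.53. The summed level of this list overlapped between the ages, at 154, 157, 148 and 202 per 10000, with Aged 1 the lowest, and its other 8 genes did not pass. Serpina3n stood at 1.46, 1.44, 1.81 and 2.45 per 10000 and did not pass (log2 difference 0.65, adjusted p = 0.293). The MHC class I list had 0 of 5 genes passing, with a median of 0.32, and B2m stood at 5.14, 5.47, 7.19 and 6.47 (log2 difference 0.45, adjusted p = 0.293). H2-D1 and H2-K1 differed by 0.59 and 0.32 without passing. Of the lipid list of 6 genes 1 was higher (Apoe) and 1 lower (Abcg2), and of the precursor list of 6 genes 1 was lower (Gpr17). The lists of neurons, spiny neurons, microglia, vascular cells, neuroblasts, MHC class II, interferon response, sirtuins and NAD metabolism, cell cycle arrest and death, transporters, lysosome and axon-glia adhesion had 0 genes passing. In the last of these, Cntn1 stood at 47.8, 47.5, 34.4 and 31.4 per 10000, without overlap (log2 difference -0.45, adjusted p = 0.148).

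White matter oligodendrocytes of the same sections, fitted alone, gave 39 of 382 genes (10.2%), 20 higher (5.24%) and 19 lower (4.97%), and 23, 25, 26 and 10 genes when Young 1, Young 2, Aged 1 or Aged 2 was left out. C4b there had a mean of 6.31 per 10000 in the young and 40.3 in the aged sections (log2 difference 2.79), and Gpr17 fell from a mean of 23 to 6.04 (log2 difference -1.83). Serpina3n and Cntn1, which did not pass in grey matter, passed in white matter with log2 differences of 1.12 (adjusted p = 0.00610) and -1.01 (adjusted p = 8.74e-05). Each fit estimated its own variance, so the counts and p-values of separate fits do not show which cells changed more. Whether the changes differed between the zones was tested by the interaction of age and zone with the section as a block. In that fit 1 of 382 genes passed (0.262%), with 27 at an unadjusted p under 0.05 14 passing by DESeq2 and 14 without Aged 2. The gene was Thbs4, whose mean was 11.4 and 10.7 per 10000 in white matter of the young and aged sections and 1.03 and 0.253 in grey matter, so that its change with age was 2.10 lower on the log2 scale in grey matter (SE 0.26, adjusted p = 0.0184). This call was lost without mixed cells (adjusted p = 0.322), after thinning (adjusted p = 0.310), at a marker share of 30% (adjusted p = 0.961) and at a grey matter limit of 10% (adjusted p = 0.819). For C4b, Serpina3n and Cntn1 the adjusted p of the interaction was 0.654, 0.676 and 0.526.

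**Figure D4:**
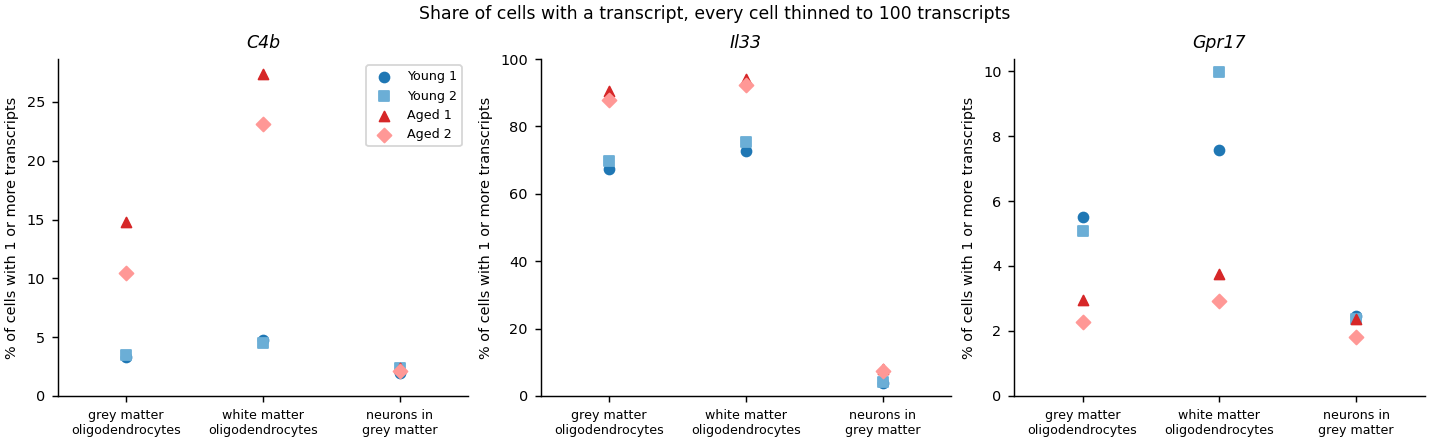
Share of cells with at least 1 transcript of C4b, Il33 or Gpr17 after every cell was thinned to 100 transcripts, in grey matter oligodendrocytes, white matter oligodendrocytes and neurons of grey matter, with 1 marker per section. In grey matter oligodendrocytes C4b rose from 3.28% and 3.48% to 14.8% and 10.5% while neurons stayed between 1.95% and 2.39%, and Gpr17 in the aged sections came close to the neurons.

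Grey matter oligodendrocytes also varied by place. A cell was called spiny-rich when at least 20% of the kept cells within 100 µm carried at least 10 transcripts of the spiny neuron list that made up at least 10% of their total, spiny neurons being the main neurons of the striatum. These were 36.4%, 31.4%, 31.3% and 29.3% of the grey matter oligodendrocytes, 1103, 936, 1028 and 1047 cells. Oligodendrocytes made up 4.89%, 4.73%, 5.65% and 5.64% of the cells of spiny-rich grey matter and 4.87%, 4.48%, 5.28% and 5.17% of the other grey matter.

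Between these surroundings 158 of 381 genes tested (41.5%) passed, 84 higher (22%) and 74 lower (19.4%) in spiny-rich tissue, with the section as a block. All 8 spiny neuron genes, which defined the surroundings, were higher. Of the other oligodendrocyte genes 9 of 14 were higher and 0 lower, with a median log2 difference of 0.12 against 0.01 over all genes. Plin3, a lipid droplet protein, stood at 62.7, 85.8, 93.6 and 84.4 per 10000 in spiny-rich tissue and at 52.1, 62, 73.9 and 70.8 elsewhere, higher in each section (log2 difference 0.41, adjusted p = 1.06e-07), and Dbndd2 was 0.36 higher (adjusted p = 2.20e-07). Cntn1 was lower in spiny-rich tissue in each section, at 31.6, 28.1, 16.3 and 17.8 against 57.3, 56.5, 43.2 and 37.3 (log2 difference -0.99, adjusted p = 1.23e-10). Of the microglia list 7 of 8 genes and of the lysosome list 4 of 6 were higher, with medians of 0.74 and 0.70, and the summed microglia list stood at 48.8, 39.5, 39.2 and 38.7 per 10000 against 26.4, 24.9, 22.0 and 24.9. Without mixed cells 6 microglia genes remained higher, with a median of 0.63. Of the astrocyte list 5 genes were lower, the sum being 144, 151, 155 and 167 against 274, 266, 290 and 273.

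C4b differed most between these surroundings in the aged sections. It stood at 3.21, 4.87, 33.1 and 27.2 per 10000 in spiny-rich tissue and at 3.32, 3.85, 14.1 and 8.86 in the other grey matter. The young levels of the surroundings overlapped, and both aged levels were higher in spiny-rich tissue. Cells with at least 3 transcripts of C4b made up 6.81% and 7.07% of the aged cells in spiny-rich tissue and 1.95% and 1.07% of the others. The rise with age was 2.92 on the log2 scale in spiny-rich tissue (adjusted p = 1.49e-19) and 1.70 in the other grey matter (adjusted p = 0.0234, 0.606 without Young 1 and 0.277 without Aged 2). The interaction of age and surroundings, added after seeing the data, gave a difference of 1.31 (SE 0.20, adjusted p = 0.00117), and C4b was the 1 gene of 381 that passed in it (0.262%), with 24 at an unadjusted p under 0.05. By DESeq2 the adjusted p was 0.00131, without mixed cells 2.92e-04 and after thinning 0.0160. Without Young 1 it was 0.0889 and without Aged 2 0.247, so the call rested on these sections. C1q and other microglia transcripts were higher in spiny-rich tissue at both ages, and microglia themselves held 1.78 to 3.28 per 10000 of C4b. Astrocytes in spiny-rich tissue held 20.5, 17.3, 33.2 and 32.4 per 10000 of C4b against 15, 12.5, 19.2 and 14.6 elsewhere. The part of microglia or of astrocytes in the levels of the oligodendrocytes was not tested.

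The level was also followed over the share of neighbours. With the oligodendrocytes sorted by the share of oligodendrocytes around them, C4b in Aged 1 stood at 22.2, 22.8, 18.1 and 20.5 per 10000 in the grey matter classes of under 2%, 2% to 5%, 5% to 10% and 10% to 20%, and at 41.9, 45.3 and 54.9 in the white matter classes of 20% to 40%, 40% to 60% and above. In Aged 2 it stood at 12, 13.2, 14.7 and 15.3, then at 28, 31.3 and 35.1. In both aged sections every white matter class thus stood above every grey matter class. The grey matter classes of Aged 1 had no order, those of Aged 2 rose from class to class, the classes differ in width, and no young class exceeded 10. Sorted by the share of spiny neurons around them, the grey matter cells of Aged 1 with under 2% stood at 11.5 and those with at least 40% at 34.1 per 10000, and those of Aged 2 at 8.08 and 28.6, with the classes between them at 14.5 to 36.2.

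**Figure D5:**
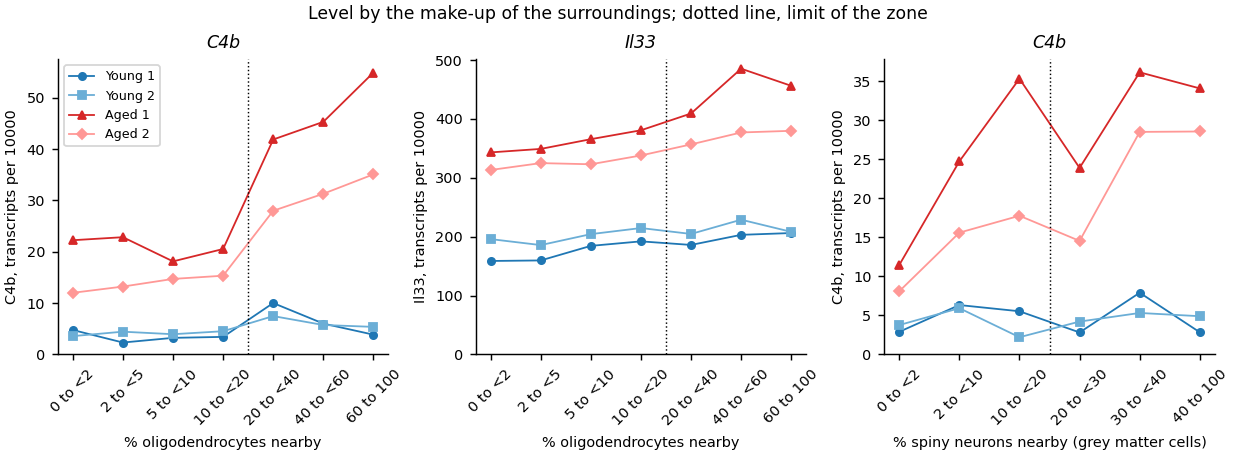
Level of C4b and Il33, in transcripts per 10000, in oligodendrocytes sorted by the share of oligodendrocytes within 100 µm (left and middle), and level of C4b in grey matter oligodendrocytes sorted by the share of spiny neurons (right), with 1 line per section and a dotted line at the 20% limit. In the aged sections C4b was higher in every white matter class than in every grey matter class, and within grey matter it was lowest, at 11.5 and 8.08, where few spiny neurons lay nearby.

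Within spiny-rich tissue alone 19 of 368 genes (5.16%) passed with age, 10 higher (2.72%) and 9 lower (2.45%). Apart from C4b, Il33, Ano1, Cbs, Spock3, Gfap and Apoe, the higher genes were Cd34 and Tm4sf1, of endothelial cells, and the long noncoding RNA Meg3 of neurons. The lower genes were Gpr17, Marcks, Thbs4, Tnf, Abcg2, Cxcl12, Cntn1, Acta2 of smooth muscle and the neuropeptide Sst. The call of Meg3 rested on Aged 1, and its log2 difference of 0.78 turned to -0.30 without it (adjusted p = 0.806). Separate fits each estimate their own variance, so their counts do not show where more changed. Gfap passed in spiny-rich tissue at a log2 difference of 0.74 (SE 0.23, edgeR adjusted p = 0.0336). Elsewhere in grey matter it did not pass at 0.61, with a smaller SE of 0.16 (edgeR adjusted p = 0.109). In the other grey matter 5 of 382 genes (1.31%) passed, with 45 at an unadjusted p under 0.05: C4b, Il33 and Ano1 higher (0.785%), Gpr17 and Marcks lower (0.524%). Its count was 0 without Young 1 or without Aged 2, and that in spiny-rich tissue was 7 without Young 1, 9 without Young 2, 11 without Aged 1 and 9 without Aged 2.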

How the data were processed

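MERFISH data of 4 sections were used, grouped by the sample titles and their age labels. Barcodes were decoded by the authors with MERLIN and assigned to segmented cells. Deposited counts are whole transcripts per gene and cell, neither normalized nor filtered, and the deposited volume of a cell is an imaging signal in cubic micrometres. A table by the authors of mean counts per section was not used. For the young sections the numbers inside the files and in the titles disagree, and the titles were followed. The unit of the positions is not stated and was read as micrometres. Class names are rebuilt here from marker lists, a neighbouring cell taking a class with at least 5 transcripts and 10% of its total. The files give gene symbols alone, without a genome build.

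Counts were summed per section and kind of cell and compared with edgeR 4.0.16 (TMM, filterByExpr, quasi-likelihood test, Benjamini-Hochberg adjustment over all genes tested, threshold 0.05) in R 4.3.3, with DESeq2 1.42.0 as an alternative. The 8 sums of a comparison of zones had the section as a block. For shares and distances the exact permutation test over sections was used, two-sided. Filtering, neighbours and figures relied on scipy 1.17.1, numpy 2.4.6, matplotlib 3.10.9 and pandas 2.3.3 (Python 3.11.15). The tests were tried on simulated counts. Named genes were up to 10 higher and 10 lower by fold among those passing with age and between zones, the 14 other oligodendrocyte genes, the 6 rule markers and C4b, Serpina3n, Il33, B2m, H2-D1, H2-K1, Slc16a1 and Cntn1. Further genes were named after their values were seen. A gene that this rule names is not reported here. The members and gene lists were chosen with earlier results of these data known. Alternatives changed the test, filter, scaling, marker share (30%), grey matter limit (10%), mixed cells, depth per cell (100 transcripts, seed 1) and sections used. Grey matter oligodendrocytes gave 947732, 791168, 570081 and 751141 transcripts in sum, and 0, 1, 1 and 1 oligodendrocytes without any kept cell around them were in neither zone.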

Additional observations from a re-analysis of the deposited data

Results flagged for a closer look

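The change of Thbs4 with age differed between grey and white matter oligodendrocytes, by -2.10 on the log2 scale in the test of that difference (SE 0.26, edgeR adjusted p = 0.0184). Its level fell in grey matter from 1.26 and 0.796 to 0.333 and 0.173 per 10000 and stood at 14.1, 8.77, 12.1 and 9.36 in white matter.

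The rise of C4b with age differed between spiny-rich and other grey matter, by 1.31 on the log2 scale in the test of that difference (SE 0.20, edgeR adjusted p = 0.00117). Its levels in the aged sections were 33.1 and 27.2 per 10000 in spiny-rich tissue and 14.1 and 8.86 elsewhere. Over the alternatives the difference was 1.06 to 1.54, and the call was lost without Young 1 and without Aged 2.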

How the results depend on the processing

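The count of 15 genes with age in grey matter oligodendrocytes stayed within 1.5 times, at 10 to 18, with DESeq2, RLE scaling, no filter, a marker share of 30%, a grey matter limit of 10%, no mixed cells, thinning, scaling without the rule markers and the replicate block. Leaving out each section gave 0 to 12 genes, and leaving out cells rich in Gpr17 gave 5. Deviations from the age mean correlated at r = -0.171 between sections of the same number and at 0.171 between crossed numbers, over 382 genes. With 2 sections per age these are mirror images of 1 value, which cannot decide whether the numbers pair the samples. The replicate block gave 18 genes, 14 of them shared. The crossed pairing, chosen after seeing the data, gave 25. In white matter, leaving out each section gave 10 to 26 genes. The interaction of age and zone gave 14 genes by DESeq2, 2 without a filter, 9 at 30%, 3 at the 10% limit, 0 without mixed cells (57 at an unadjusted p under 0.05), 0 after thinning (55), 3 without the rule markers and 1 to 14 without each section. Leaving out each section gave 7 to 11 genes in spiny-rich tissue, 0 to 15 in the other grey matter (11 without mixed cells) and 0 to 3 in the interaction with surroundings. Between grey and white matter 121 to 198 genes passed under the alternatives tried. At a marker share of 30% the difference in the share of kept cells turned from 0.463 to -0.173 percentage points and that in the part of oligodendrocytes in grey matter from -3.80 to 6.48. Without Young 2 the difference in nearest neurons turned from 0.524 to -0.287 percentage points, over a range of -0.287 to 1.33 without each section, and that in the median distance to the nearest oligodendrocyte from -1.02 to 1.09 µm, over a range of -3.12 to 1.09. At 30%, Thbs4 with age turned to 0.11 (adjusted p = 0.874) and Plin3 between zones to 0.20 (adjusted p = 0.0462), and Meg3 in spiny-rich tissue turned from 0.78 to -0.30 without Aged 1, over a range of -0.30 to 1.44 without each section. The causes were not tested. Over all alternatives and named genes 2715 values kept their direction and side of the threshold, 188 lost and 87 gained a call, 296 moved and 3 reversed. Thbs4 rested on 119, 63, 19 and 13 transcripts in the grey matter oligodendrocytes of the 4 sections.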
